A study of Mus musculus with 9 samples.

Results

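Heterozygous beta-thalassemia erythroblasts were compared with wild type erythroblasts from mouse fetal liver. The comparison used the 3 arrays labelled heterozygote and the 3 labelled wild type, which are 6 of the 9 arrays of the study. Genes were described through the 23410 annotated probe sets of the 35556 in the deposited table. The other 3 arrays come from Th3/Th3 embryos and are used here for the shared estimate of the spread and for values set beside those of the heterozygotes.

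Th3 is an allele without the adult beta-globin genes, present in every cell of the animal. A Th3/+ embryo carries 1 intact copy of the locus, a wild type embryo carries 2, and a Th3/Th3 embryo carries none. Parents of every embryo were Th3/+, and the strain was 129SV crossed back to C57BL/6 over 9 generations. Livers were taken at stage E14.5 and sorted for cells with CD71 (the transferrin receptor), Ter119 (a red cell surface antigen) and high forward scatter, a gate for large erythroblasts. RNA was amplified from 35 ng and labelled with biotin. Each genotype has 3 biological replicates, and the labels leave unstated whether embryos were pooled and which shared a litter, so the p-values measure the spread between these samples.

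Erythroblasts fill with haemoglobin, which needs equal supply of alpha-like and beta-like globin chains. In beta-thalassemia, alpha chains without a partner are unstable, bind heme and iron, and precipitate. Cells deal with such proteins through cytosolic chaperones, whose genes are driven by heat shock factor, and through the proteasome and autophagy. The chaperone HSP70 is also known in maturing erythroblasts for shielding GATA1, the main erythroid transcription factor, from cleavage. Fetal mouse erythroblasts of this stage use the adult beta-globin genes, so the loss of a locus acts there before birth.

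All values are log2 levels as deposited, differences are Th3/+ minus wild type means of log2 levels, and a fold is the antilog of a difference. Rank correlations between arrays over the kept probe sets were 0.98 to 0.982 within wild type, 0.973 to 0.987 within Th3/+ and 0.972 to 0.986 between them. On the first principal component, with 47.4% of the variance, the wild type arrays lay between -23.8 and -19.6, the Th3/+ arrays between -14.7 and -9.19 and the Th3/Th3 arrays between 32.6 and 36.6. On the second, with 16.7%, Th3/+ replicate 1 stood apart at 20.5 from the other Th3/+ arrays at -10.1 and -13, as did Th3/Th3 replicate 1 at 25.5. The wild type arrays lay at 7.71, 5.16 and -12 there, so replicate 1 was highest and replicate 3 lowest in every genotype. Xist, the RNA of the inactive X chromosome, was high (9.63 and 9.5) in wild type replicate 1 and Th3/+ replicate 2 and at 3.74 to 4.14 in the other 4 arrays, so each group held the same number of Xist-high arrays. With Xist as a covariate, 5 probe sets were called, as without it.

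A small number of genes separated the heterozygotes from wild type beyond the spread between replicates. Of 17742 probe sets kept after a filter on low values, 5 passed an adjusted p of 0.05 (0.0282% of those tested, limma with Benjamini-Hochberg adjustment), all 5 higher in Th3/+. They were 1 probe set of Hspa1a, which encodes the inducible HSP70, 3 probe sets of Hspa8, which encodes the constitutive HSC70, and 1 probe set with no listed gene symbol. Among the 14978 annotated probe sets 4 were called (0.0267%) and 539 had an unadjusted p under 0.05 (3.6%). Fitted and adjusted over annotated probe sets alone, 4 were called higher and 1 lower, Ect2l (adjusted p = 0.0499). The count was 5 higher and 1 lower with each array centred on its median, and 6 higher and 1 lower after quantile normalization. The same contrast between Th3/Th3 and wild type, which uses the same wild type arrays, called 2181 probe sets (12.3%).

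The calls depended on which arrays entered the fit. Fitted to the 6 arrays alone, 0 probe sets were called, with 780 at an unadjusted p under 0.05 and a smallest adjusted p of 0.0643. The adjusted p was then 0.0959 for Hspa1a and 0.102 for Hspa8. Without Th3/+ replicate 2 the call count was 1, the probe set with no symbol, without wild type replicate 1 it was 3, and without Th3/+ replicate 1 it was 12. Without both Th3/+ replicate 1 and Th3/Th3 replicate 1, 3 were called, and Hspa1a had an adjusted p of 0.0599.

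Across the transcriptome the shift was narrow. The median difference over the 17742 probe sets was 0.0046, and the range from the 5th to the 95th percentile was -0.23 to 0.28. The standard deviation of the differences was 0.17, against 0.42 for Th3/Th3 minus wild type. A difference of at least 1.5-fold was seen for 121 probe sets upward (0.682%) and 53 downward (0.299%), and one of at least 2-fold for 17 upward (0.0958%) and 4 downward (0.0225%). For 80.6% of the probe sets the 95% interval of the difference lay within 1.5-fold of no change, and for 96.7% within 2-fold.

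More probe sets with strong signal lay higher than lower in Th3/+. At an unadjusted p under 0.05 there were 645 probe sets (3.64%), 428 higher in Th3/+ (2.41%) and 217 lower (1.22%). Where nothing differs, a test at this threshold passes a share of 0.05 on average, and 3.64% is below that. In the lower tertile of mean level these counts were 70 and 64, in the middle tertile 82 and 92, and in the upper tertile 276 and 61, out of 5914 probe sets each. The 3 Th3/+ arrays did not overlap the 3 wild type arrays at 1353 probe sets (7.63%), above them at 781 (4.4%) and below at 572 (3.22%). Where nothing differs, 3 and 3 interchangeable arrays do not overlap at a share of 0.1, and 7.63% is below that. The sizes of these counts alone therefore do not show a shift. The lean of these counts depended on the scaling. After quantile normalization 415 were higher and 290 lower at an unadjusted p under 0.05, and 893 lay above without overlap against 882 below. With each array centred on its median these counts were 405 and 231, and 875 and 704. In the upper tertile the counts at an unadjusted p under 0.05 were 247 higher and 94 lower after quantile normalization and 246 higher and 61 lower with median centring. Differences above 0 made up 51.9% of all, a share that the common median of the deposited arrays holds close to even.

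**Figure D1:**
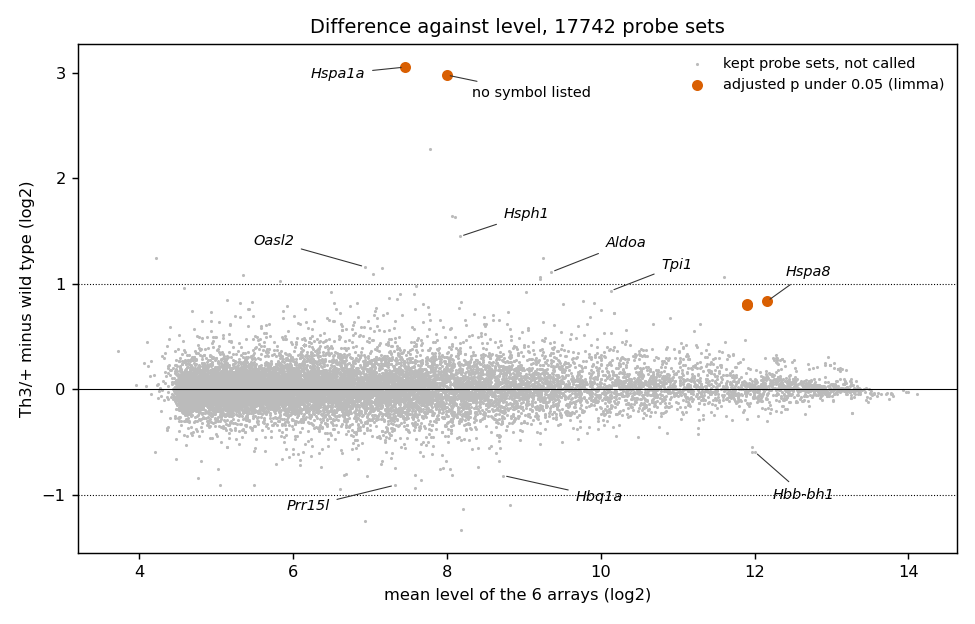
Difference between the Th3/+ and wild type means (log2, vertical) against the mean level of the 6 arrays (log2, horizontal) for 17742 probe sets, with the 5 called probe sets as large points and dotted lines at 2-fold. The called points sit above the line of 0, Hspa1a at 3.05 and the probe set with no listed symbol at 2.98, and the 3 probe sets of Hspa8 near 0.8 at high level.

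Hspa1a carried the largest difference of any named gene. Its levels were 6.24, 6.15 and 5.38 in the wild type arrays, 8.95, 9.33 and 8.64 in the Th3/+ arrays and 10.12, 9.57 and 9.72 in those of Th3/Th3. The 3 Th3/+ arrays lay far above the highest wild type array and below the lowest Th3/Th3 array. The rise over wild type was 3.05 with a standard error of 0.27 (95% interval 2.45 to 3.65, an 8.29-fold change, adjusted p = 0.00482, limma). In Th3/Th3 the rise over the same wild type arrays was 3.88, and the step from Th3/+ to Th3/Th3, 0.83 with a standard error of 0.27, did not pass (adjusted p = 0.107). Hspa1a and its neighbour Hspa1b are near-identical copies, so the signal cannot be assigned to 1 of them with certainty. A probe set listed for both genes read 6.82, 6.49 and 6.6 in the wild type arrays and 9.04, 9.3 and 8.42 in the Th3/+ arrays, a difference of 2.28 with an adjusted p of 0.0754.

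Hspa8 encodes the HSP70 family member that all cells hold at high level, which also strips clathrin from vesicles. Its probe set with the highest mean read 11.72, 11.68 and 11.83 in the wild type arrays, 12.43, 12.66 and 12.66 in the Th3/+ arrays and 13.29, 13.19 and 13.34 in those of Th3/Th3. The genotypes did not overlap and Th3/+ lay between the others. Hspa8 rose by 0.83 with a standard error of 0.08 (95% interval 0.67 to 1.00, 1.78-fold, adjusted p = 0.00482). Its other probe sets rose 1.73-fold (adjusted p = 0.00482) and 1.75-fold (adjusted p = 0.00649). For Hspa8 the further step to Th3/Th3, 0.69 with a standard error of 0.08, also passed (adjusted p = 0.00118).

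Some partners of HSP70 and HSP90, named for their size or p, lay above wild type without passing the test across all probe sets. Hsph1 encodes HSP110, which exchanges the nucleotide of HSP70, and read 7.17, 7.22 and 7.94 in the wild type arrays and 8.57, 8.95 and 9.17 in the Th3/+ arrays. The groups did not overlap, and the difference was 1.45 with a standard error of 0.27 (2.73-fold, adjusted p = 0.382). Chordc1, a partner of HSP90, read 7.09, 7.29 and 6.98 against 7.95, 8.07 and 8.05, with tight replicates in both groups. Its difference was 0.91 with a standard error of 0.13 (1.88-fold, adjusted p = 0.0998). Dnaja1, an HSP40 that feeds clients to HSP70, read 10.41, 10.56 and 10.73 against 11.11, 11.41 and 11.2, a difference of 0.68 (adjusted p = 0.358). Its other probe set differed by 0.48 (unadjusted p = 0.119, limma). A probe set that lists Mir207 together with Dnaja1 differed by 0.01 with overlapping arrays. Hsp90aa1, the inducible HSP90, read 11.58, 11.74 and 11.6 against 12.08, 12.09 and 12.15, again without overlap. Its difference was 0.47 (adjusted p = 0.382), with 0.45 and 0.55 at its other probe sets.

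The stretch around the start site is shown for 4 of these chaperone genes, picked because they hold matches to the heat shock element. These are the 2 with the largest differences and 2 of those with the smallest p-values. Hspa8 and Hsp90aa1 had no promoter entry and were not searched. Heat shock factor binds repeats of the unit GAA in alternating direction. Capitals mark the matches to 2 adjoining units, GAANNTTC or TTCNNGAA, where N is any base, with matches that overlap joined into 1 run. Both patterns are their own reverse complement, so a search of 1 strand covers both. Each sequence is the sense strand from 250 bases before to 50 bases after a RefSeq start site on build GRCm38.p6, 5′ to 3′. They are chr17:34972107-34972406 on the minus strand for Hspa1a, chr5:149636266-149636565 on the minus strand for Hsph1, chr9:18292017-18292316 on the plus strand for Chordc1 and chr4:40722218-40722517 on the plus strand for Dnaja1.
Hspa1a: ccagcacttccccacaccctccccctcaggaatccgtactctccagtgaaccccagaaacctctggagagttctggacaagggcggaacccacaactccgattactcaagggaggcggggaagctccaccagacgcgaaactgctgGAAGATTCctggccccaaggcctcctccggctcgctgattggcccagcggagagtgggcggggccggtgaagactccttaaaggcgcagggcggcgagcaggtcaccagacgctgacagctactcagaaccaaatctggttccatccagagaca
Hsph1: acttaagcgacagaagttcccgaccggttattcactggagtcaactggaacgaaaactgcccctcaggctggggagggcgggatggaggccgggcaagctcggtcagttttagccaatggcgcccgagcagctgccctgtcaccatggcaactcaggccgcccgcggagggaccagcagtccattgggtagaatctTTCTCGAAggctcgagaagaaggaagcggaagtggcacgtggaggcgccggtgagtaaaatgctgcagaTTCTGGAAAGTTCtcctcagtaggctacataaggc
Chordc1: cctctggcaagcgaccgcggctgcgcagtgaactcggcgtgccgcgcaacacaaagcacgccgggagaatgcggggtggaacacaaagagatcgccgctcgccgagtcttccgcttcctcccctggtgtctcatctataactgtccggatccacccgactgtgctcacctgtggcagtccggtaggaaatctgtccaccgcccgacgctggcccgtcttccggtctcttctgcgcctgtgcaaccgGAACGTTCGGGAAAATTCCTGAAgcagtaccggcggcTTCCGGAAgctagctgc
Dnaja1: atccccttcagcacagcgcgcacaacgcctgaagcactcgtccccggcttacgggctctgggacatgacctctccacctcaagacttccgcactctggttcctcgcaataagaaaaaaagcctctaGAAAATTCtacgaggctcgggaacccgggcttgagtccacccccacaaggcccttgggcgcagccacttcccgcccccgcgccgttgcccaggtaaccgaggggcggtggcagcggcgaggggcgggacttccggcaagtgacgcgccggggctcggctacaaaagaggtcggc

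Hspa1a held 1 match, which begins at -104 from the start site, and Dnaja1 held 1, at -124. The pattern of 3 units, GAANNTTCNNGAA or its complement TTCNNGAANNTTC, was searched too. Hsph1 held 3 matches to 2 units and 1 to 3 units. Chordc1 held 5 matches to 2 units and 3 to 3 units, and those 3 overlap within the longer of its stretches in capitals. RefSeq lists 3 start sites for Dnaja1, and the windows of the others held no match. Among all 32851 RefSeq promoter windows of this length, 15.1% held the pattern of 2 units and 0.603% the pattern of 3. Counted by gene, with any of its windows, the shares were 17.0% and 0.662% of 27025 genes. Of the 10 genes named for the largest positive differences, 9 had a promoter entry, 3 of them (Hspa1a, Hsph1 and Chordc1) with 2 units and 2 (Hsph1 and Chordc1) with 3. Of the 10 named for the largest negative differences, 9 had an entry, 1 of them (Hbq1a) with 2 units and 0 with 3. A match describes the letters only.

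Of 31 chaperone genes and cochaperones listed, 26 were tested on a probe set of their own. Both called genes, Hspa1a and Hspa8, are in this list, out of 2 called among all 12898 genes tested (0.0155%), and 14 of the 26 had an unadjusted p under 0.05 on the upper side, against 2.26% of all genes, with 0 on the lower side, against 1.21%. The 3 Th3/+ arrays lay wholly above wild type for 13, against 4.5%, and 0 lay wholly below, against 3.26%. The median difference of the list was 0.28, against 0.0054 over all genes tested, and 24 of 26 lay above 0, against 52.1%. In Th3/Th3 the list's median over the same wild type arrays was 1.14.

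Within the list the differences were uneven. Bag3, a cochaperone that links HSP70 to autophagy, lay 0.81 above wild type, Dnajb1, the stress-inducible HSP40, 0.68, and Stip1, which passes clients from HSP70 to HSP90, 0.56. The unadjusted p was 0.00179, 0.00393 and 0.00349 for Bag3, Dnajb1 and Stip1. Ahsa1, an activator of the HSP90 ATPase, lay 0.3 above and Hspe1, the small subunit of the mitochondrial chaperonin, 0.25 above. The mitochondrial partner Hspd1 lay at 0.14 with arrays on both sides of wild type. The small heat shock protein genes Hspb1 and Hspb8 stood at 0.05 and 0.02, and Dnaja2 at 0.01. Hspbp1, which blocks HSP70 cycling, and Ptges3, the HSP90 cochaperone p23, were the members below 0, at -0.11 and -0.17. Without Th3/+ replicate 1, the array that stood apart, the median of the list was 0.42.

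**Figure D2:**
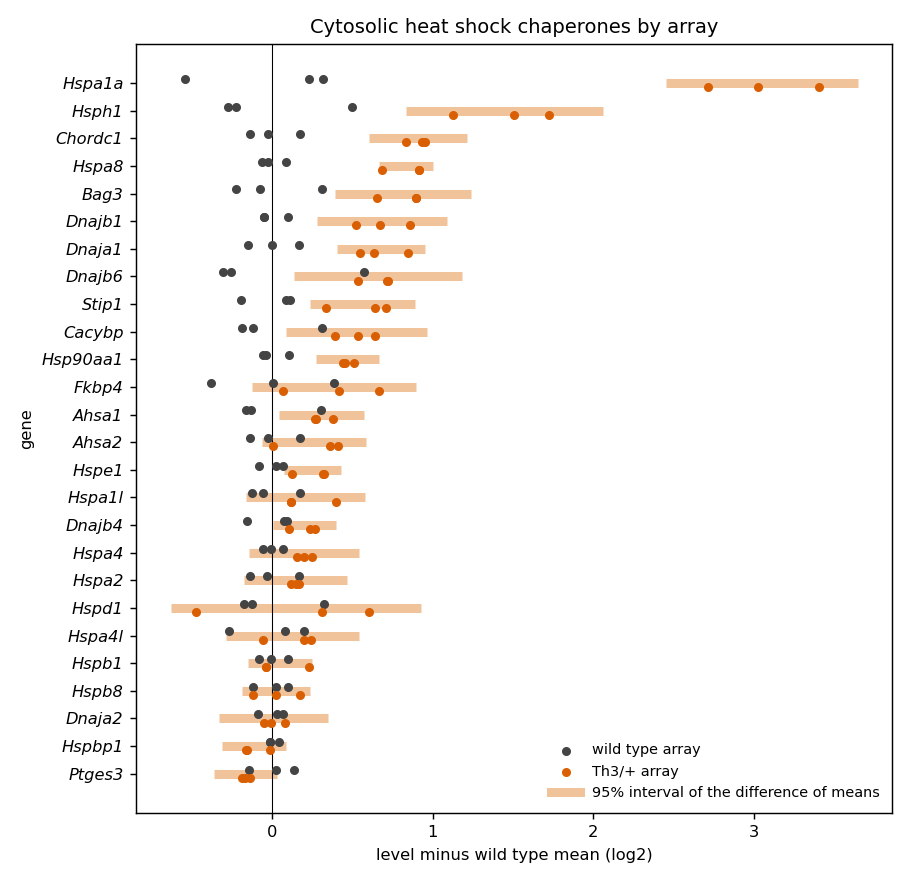
Level of each array minus the wild type mean (log2, horizontal) for the 26 tested chaperone genes, with wild type arrays as grey points, Th3/+ arrays as orange points and a bar for the 95% interval of the difference. Hspa1a stands alone near 3, Hsph1 follows at 1.45, and the genes from Hspb1 down show mixed points near 0.

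Most proteasome genes lay slightly above wild type, with 0 called. Of 45 subunits and assembly factors listed, 44 were tested, and 15 had an unadjusted p under 0.05 on the higher side (2.26% of all genes) and 0 on the lower (1.21%). The arrays did not overlap upward for 14 of 44, against 4.5% of all genes, and 40 lay above 0, against 52.1%. The median was 0.21, against 0.0054 over all genes, and 0.58 in Th3/Th3 over the same wild type arrays. Psmb6, which encodes a catalytic subunit of the core, read 11.48, 11.6 and 11.59 in the wild type arrays and 11.84, 11.86 and 11.97 in the Th3/+ arrays. That difference was 0.34 with a standard error of 0.08 (1.26-fold, adjusted p = 0.674), and the arrays did not overlap. Psmb7, another catalytic subunit, read 11.13, 11.27 and 11.33 against 11.5, 11.58 and 11.64, a difference of 0.33 (adjusted p = 0.734). Psmd2 and Psmc2, base subunits of the regulatory particle, lay 0.45 and 0.38 above wild type, and the assembly factor Pomp 0.42 above.

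Genes of the integrated stress response, which ATF4 directs when translation initiation is slowed, also lay upward. Of 43 listed, 36 were tested and 0 called. An unadjusted p under 0.05 was seen for 7 upward (2.26% of all genes) and 0 downward (1.21%). The arrays did not overlap upward for 11 (4.5% of all genes), and 30 lay above 0 (52.1%). The median was 0.14, and 0.38 in Th3/Th3. Sars, the cytosolic seryl-tRNA synthetase, read 10.17, 10 and 10.12 in the wild type arrays and 10.55, 10.52 and 10.6 in the Th3/+ arrays, 0.46 higher with a standard error of 0.09 (adjusted p = 0.501). Asns, asparagine synthetase, read 11.59, 11.65 and 11.44 against 11.8, 11.88 and 11.96, and in Th3/Th3 11.8, 11.8 and 11.95. For Asns the Th3/+ arrays reached the Th3/Th3 levels: the difference from wild type was 0.32 in Th3/+ (adjusted p = 0.811) and 0.29 in Th3/Th3 (adjusted p = 0.0436), and the genotypes differed by -0.03 with a standard error of 0.08. Gars, the glycyl-tRNA synthetase, lay 0.53 above wild type, Phgdh, the first enzyme of serine synthesis, 0.47, and Ddit3, which encodes CHOP, 0.34.

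The unfolded protein response of the endoplasmic reticulum had members on both sides of wild type. All 27 listed genes were tested and 0 called, with 4 at an unadjusted p under 0.05 higher (2.26% of all genes) and 1 lower (1.21%). Above 0 lay 21 (52.1% of all genes). The median was 0.07, which ranged from -0.0044 to 0.14 when single arrays were left out. Herpud1, part of the retrotranslocation machinery of the endoplasmic reticulum, read 7.98, 8.11 and 7.88 in the wild type arrays and 8.58, 8.63 and 8.89 in the Th3/+ arrays. It lay 0.71 above wild type with a standard error of 0.15 (1.64-fold, adjusted p = 0.521), with no overlap. Ern1, the stress sensor IRE1 alpha, lay 0.58 above, while the disulfide isomerase Pdia4 lay at -0.27. Dnajb9, a chaperone of the same compartment, read 5.09, 5.23 and 5.23 against 5.1, 5.35 and 4.86, a difference of -0.08, and stood at 1.86 over the same wild type arrays in Th3/Th3.

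Targets of NRF2, the regulator of antioxidant genes, had a median slightly above wild type. Of 45 listed, 37 were tested and 0 called, and the median was 0.05. An unadjusted p under 0.05 was seen for 4 upward (2.26% of all genes) and 0 downward (1.21%). The arrays did not overlap upward for 4 (4.5% of all genes), and 25 lay above 0 (52.1%). Srxn1, which restores oxidised peroxiredoxins, read 8.1, 8.14 and 8.51 in the wild type arrays, 8.87, 8.88 and 9.12 in the Th3/+ arrays and 10.79, 10.72 and 10.94 in those of Th3/Th3. The 3 genotypes formed 3 separate ranges, with Th3/+ 0.71 above wild type (standard error 0.14, adjusted p = 0.501) and Th3/Th3 2.56 above it. Gclc, the catalytic subunit of glutathione synthesis, read 9.37, 9.26 and 9.45 against 9.75, 9.91 and 9.85, a difference of 0.48 (adjusted p = 0.885). Hmox1, heme oxygenase, lay at 0.29 in Th3/+ with overlapping arrays and at 1.75 in Th3/Th3.

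Sugar metabolism held some of the larger differences outside the chaperones. Tpi1, the glycolytic triosephosphate isomerase, read 9.76, 9.51 and 9.71 in the wild type arrays, 10.39, 10.56 and 10.84 in the Th3/+ arrays and 11.39, 11.47 and 11.39 in those of Th3/Th3. Th3/+ lay between the others without overlap, 0.93 above wild type with a standard error of 0.13 (1.91-fold, adjusted p = 0.0734). Aldoa, aldolase A, read 8.85, 8.41 and 9.14 against 9.48, 10.06 and 10.19, a difference of 1.11 with a standard error of 0.22 (2.16-fold, adjusted p = 0.478). Pgk1 and Ldha, later enzymes of glycolysis, lay 0.73 and 0.66 above wild type, and in both the Th3/+ replicate 1 array was the lowest of its group, at 10.03 and 7.94. Without that array Tpi1 had an adjusted p of 0.0346 and 3 probe sets of Pgk1 had one of 0.0276. Of the 39 hypoxia and glycolysis genes listed, 31 were tested and 0 called, with a median of 0.09. An unadjusted p under 0.05 was seen for 5 upward (2.26% of all genes) and 0 downward (1.21%). The arrays did not overlap upward for 8 (4.5% of all genes), and 22 lay above 0 (52.1%).

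Pgd, which makes NADPH in the pentose phosphate pathway, read 7.08, 6.68 and 7.58 in the wild type arrays and 7.92, 7.9 and 8.45 in the Th3/+ arrays. It lay 0.98 above wild type with a standard error of 0.24 (1.97-fold, adjusted p = 0.734) and 2.91 above it in Th3/Th3. Of the 11 pentose phosphate and NADPH genes tested of 12 listed, 0 were called. An unadjusted p under 0.05 was seen for 2 upward (2.26% of all genes), Pgd and the transaldolase Taldo1 at 0.3, and 0 downward (1.21%). Esd, esterase D, which clears a formaldehyde adduct of glutathione, read 9.24, 9.42 and 9.39 in the wild type arrays and 9.96, 10.29 and 10.32 in the Th3/+ arrays. Esd lay 0.84 above wild type (adjusted p = 0.0819), and its other probe set 0.8 above (adjusted p = 0.0505).

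**Figure D3:**
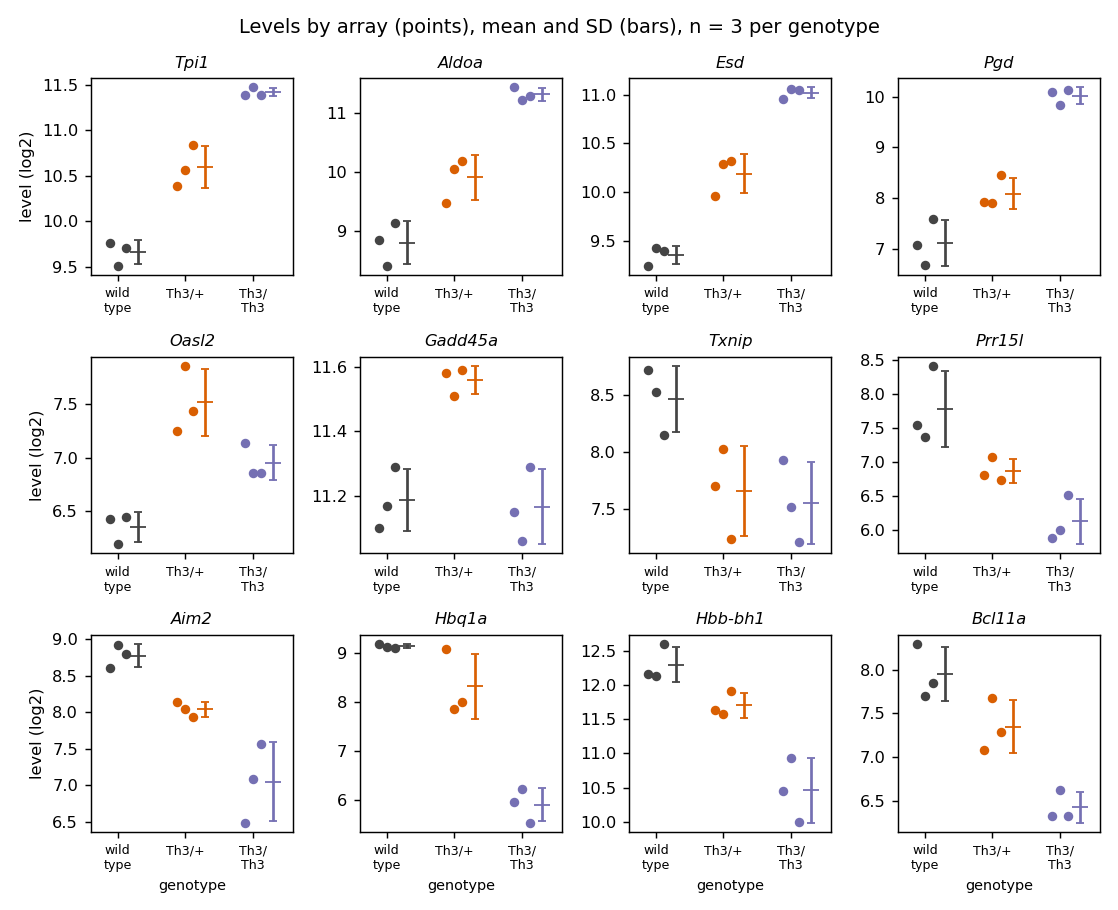
Levels (log2, vertical) of 12 genes in the 3 arrays of each genotype (points), with the mean and SD as bars. Tpi1, Aldoa, Esd and Pgd step upward through the genotypes, Oasl2 and Gadd45a are highest in Th3/+, Txnip is low in both thalassemic genotypes, and Prr15l, Aim2, Hbq1a, Hbb-bh1 and Bcl11a step downward.

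The adult beta-globin genes cannot be told apart on this array, since both probe sets that read them list 4 symbols (Hbb-bt, Hbb-bs, Hbb-b2 and Hbb-b1). Their signal in Th3/+ was close to wild type: 13.81, 13.86 and 13.84 in wild type against 13.81, 13.76 and 13.76 at the first set, and 13.76, 13.81 and 13.82 against 13.74, 13.68 and 13.69 at the second. The Th3/+ arrays lay at the low end, by -0.07 and -0.09 in the means (adjusted p = 1 for both, limma). In the fit to the 6 arrays alone, without the wide spread of the Th3/Th3 arrays, the unadjusted p was 0.0656 and 0.0183 and the adjusted p 0.997 for both. In Th3/Th3, without these genes, the means were 9.47 and 9.38, which served as a check of the Th3/Th3 labels. These sets differed too little between Th3/+ and wild type to check the labels of those groups. The adult beta-globin signal lay close to the highest value of each array outside the controls (14.03 to 14.2), and whether it still follows the amount of RNA there was not tested. The alpha-globin signal, read on sets that list Hba-a1 together with Hba-a2, differed by -0.1 and -0.12 (adjusted p = 1 for both), also near those highest values.

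Of 6 embryonic and theta globins tested, 0 were called. Hbb-bh1 and Hbq1a, 2 of the 6, had an unadjusted p under 0.05 on the lower side, against 1.21% of all genes. Hbb-bh1, an embryonic beta-like globin, read 12.16, 12.14 and 12.6 in the wild type arrays, 11.63, 11.57 and 11.91 in the Th3/+ arrays and 10.45, 10.93 and 9.99 in those of Th3/Th3. Its 3 genotypes did not overlap, and Th3/+ differed from wild type by -0.59 with a standard error of 0.22 (adjusted p = 1). Hbq1a, a theta globin of the alpha cluster, read 9.18, 9.12 and 9.11 against 9.08, 7.87 and 8.01, a difference of -0.82 (adjusted p = 1) in which Th3/+ replicate 1 lay at the wild type level. Its near copy Hbq1b lay at 0.08, and sharing of signal between the copies was not tested. Hbb-y, the other embryonic beta-like globin, read 11.86, 11.82 and 12.41 against 11.5, 11.85 and 12.5, a difference of -0.08 whose sign changed when single arrays were left out. Hba-x, the embryonic alpha-like globin, lay at 0.05 and Hbb-bh2 at 0.24, with overlapping arrays and signs that also changed.

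Bcl11a, a repressor of embryonic and fetal globin genes, read 8.29, 7.7 and 7.85 in the wild type arrays, 7.08, 7.68 and 7.29 in the Th3/+ arrays and 6.33, 6.63 and 6.33 in those of Th3/Th3. The Th3/+ arrays lay just under the wild type arrays, by -0.6 in the mean with a standard error of 0.2 (adjusted p = 1). Zbtb7a, another repressor of fetal globin, lay at -0.32 (-0.44 to -0.12 when single arrays were left out) and Gfi1b, a repressor needed for erythroid growth, at -0.37, and neither interval excluded 0. Of the 18 globin switching regulators tested of 19 listed, 0 were called and 1, Bcl11a, had an unadjusted p under 0.05, with a median of -0.05. All 31 erythroid transcription factors listed were tested, with 0 called, 1 at an unadjusted p under 0.05 (Bcl11a) and 7 above 0 (52.1% of all genes). The arrays did not overlap downward for 5 (3.26% of all genes) and upward for 0 (4.5%), and the median was -0.08. Gata1 lay at -0.14 and Klf1 at -0.13, both with overlapping arrays. In Th3/Th3 the median of the list was -0.52 over the same wild type arrays.

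The lists for the machinery that makes red cells had medians near wild type in Th3/+. Of 24 heme synthesis and mitochondrial iron genes listed, 21 were tested, 0 called and 10 above 0, with 1 at an unadjusted p under 0.05. Their median was -0.0004, against -0.39 in Th3/Th3, and for 19 of 21 the 95% interval lay within 1.5-fold of no change. The arrays did not overlap upward for 2 and downward for 3, against 4.5% and 3.26% of all genes. Alas2, the erythroid enzyme that starts heme synthesis, read 12.58, 12.69 and 12.77 in the wild type arrays and 12.61, 12.6 and 12.67 in the Th3/+ arrays, a difference of -0.05 with a 95% interval from -0.27 to 0.17. Fech, which inserts the iron, stood at -0.04 and Slc25a39, a mitochondrial carrier, at -0.22. Iscu, the scaffold of iron-sulfur clusters, lay 0.24 above wild type (unadjusted p = 0.0102). Of 49 listed genes of the red cell membrane and of late maturation, 43 were tested, 0 called and 16 above 0 (52.1% of all genes). An unadjusted p under 0.05 was seen for 2 upward and 1 downward (2.26% and 1.21% of all genes). Their median was -0.03, against -0.83 in Th3/Th3, and for 34 of 43 the 95% interval lay within 1.5-fold of no change. Slc4a1, the anion exchanger band 3, read 12.94, 12.89 and 13.14 against 12.89, 12.98 and 12.97, a difference of -0.04. The water channel gene Aqp1 lay at -0.68 without overlap, 8.57, 8.36 and 8.04 against 7.46, 8 and 7.47 (adjusted p = 1), and Tpm1, a tropomyosin of the membrane skeleton, at 0.34.

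Iron handling and its signals gave a similar picture. Of 24 tested iron uptake, storage and heme breakdown genes of 29 listed, 0 were called and 1 had an unadjusted p under 0.05. Above 0 lay 12 (52.1% of all genes), and the median was -0.0012. Ftl1, the ferritin light chain, read 12.51, 12.5 and 12.69 in the wild type arrays and 12.79, 12.75 and 12.9 in the Th3/+ arrays, 0.24 higher (1.18-fold, adjusted p = 0.885) without overlap. Tfrc, which encodes CD71, one of the sorting markers, stood at -0.1 (95% interval -0.31 to 0.12). Erfe, the erythroblast hormone that lowers hepcidin, read 6.45, 6.41 and 6.4 against 6.7, 6.71 and 6.52, and 6.49 in each of the 3 Th3/Th3 arrays. Its difference of 0.22 was small and not called (adjusted p = 1). Of 20 erythroferrone, GDF and activin signalling genes tested of 26 listed, 0 were called and 1, Erfe, had an unadjusted p under 0.05, with a median of -0.01. The SD of the Th3/Th3 arrays was 0 for Erfe, which lowers the shared estimate of the spread behind that p. Of 30 tested erythropoietin and STAT5 targets of 32 listed, 0 were called and 1, Txnip, had an unadjusted p under 0.05, on the lower side (1.21% of all genes). Above 0 lay 7 (52.1% of all genes), and the median was -0.06.

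Proliferation genes had medians near wild type and more members below it than above. Of 45 mitosis genes tested of 46 listed, 0 were called, 1 had an unadjusted p under 0.05, 13 lay above 0 (52.1% of all genes did) and 39 had an interval within 1.5-fold, with a median of -0.06. Of 47 DNA replication genes tested of 48, 0 were called, 0 had an unadjusted p under 0.05, 16 lay above 0, 42 had an interval within 1.5-fold and the median was -0.04, which ranged from -0.10 to 0.060 when single arrays were left out. Pttg1, the securin that holds sister chromatids together, lay at 0.62, where wild type replicate 1 at 11.65 matched the Th3/+ arrays (11.66, 11.54 and 11.6) and the other wild type arrays stood at 10.67 and 10.62. Of 31 cell cycle exit regulators tested of 33, 0 were called. An unadjusted p under 0.05 was seen for 3, all downward (1.21% of all genes): the CDK inhibitor Cdkn2c (-0.32), Cdk2 (-0.25) and E2f3 (-0.34). Above 0 lay 11 of the 31 (52.1% of all genes). Of 16 early erythroid and progenitor genes tested of 21, 0 were called and 1 had an unadjusted p under 0.05, with a median of 0.04.

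Gadd45a, a stress-induced gene of the p53 pathway, had a level in Th3/+ that neither other genotype reached. It read 11.1, 11.17 and 11.29 in the wild type arrays, 11.58, 11.51 and 11.59 in the Th3/+ arrays and 11.15, 11.06 and 11.29 in those of Th3/Th3. The difference from wild type was 0.37 with a standard error of 0.08 (adjusted p = 0.674), and the difference between Th3/Th3 and Th3/+, -0.39, passed its own test (adjusted p = 0.0248). Of 21 p53 targets tested of 29, 0 were called for Th3/+ against wild type, with a median of 0.02. An unadjusted p under 0.05 was seen for 2 upward, Gadd45a and Rrm2b (2.26% of all genes), and 0 downward (1.21%). Of 22 apoptosis regulators tested of 34, 0 were called and 1 had an unadjusted p under 0.05, the anti-apoptotic gene Mcl1, which lay at -0.2 without overlap. Of 27 immediate-early genes tested of 30, 0 were called and 1 had an unadjusted p under 0.05, Ier3 at -0.52. Jun, an immediate-early gene, stood at 0.12 in Th3/+ and at 2.87 in Th3/Th3 over the same wild type arrays.

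Autophagy, ribosome and mitochondrial genes differed in the spread of their members. Of 38 autophagy and mitophagy genes tested of 43, 0 were called, and the median was 0.13. An unadjusted p under 0.05 was seen for 3 upward, Sqstm1, Bnip3 and Nbr1 (2.26% of all genes). The arrays did not overlap upward for 8 and downward for 1 (4.5% and 3.26% of all genes), and 30 lay above 0 (52.1%). Sqstm1, the receptor p62 that binds ubiquitinated cargo and is also a NRF2 target, read 9.23, 9.07 and 9.58 against 9.7, 9.63 and 9.8, a difference of 0.42 (adjusted p = 1). Bnip3, a mitophagy receptor, read 7.02, 8.01 and 7.08 against 8.19, 8.17 and 8.08, where wild type replicate 2 came close to Th3/+. For the 56 cytosolic ribosomal protein genes tested of 81 listed, all 56 intervals lay within 1.5-fold, 0 were called, 0 had an unadjusted p under 0.05 and the median was 0.03. For the 74 respiratory chain genes tested of 77, 0 were called, 70 intervals lay within 1.5-fold, 56 lay above 0 and the median was 0.05. An unadjusted p under 0.05 was seen for 2, Cox7a2l at 0.31 and Ndufs5 at 0.36. A probe set that lists Ndufs5 together with Ndufs5-ps differed by 0.04 with overlapping arrays. For 40 ribosome biogenesis genes tested of 42, 0 were called and 1 had an unadjusted p under 0.05, the nucleolar methyltransferase Nop2 at 0.4, with a median of 0.06.

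Oasl2, an interferon-induced gene of the oligoadenylate synthetase family, also had its highest level in Th3/+. It read 6.43, 6.19 and 6.44 in the wild type arrays, 7.25, 7.86 and 7.44 in the Th3/+ arrays and 7.14, 6.86 and 6.86 in those of Th3/Th3. Every Th3/+ array lay above every array of the other genotypes, and the difference from wild type was 1.16 with a standard error of 0.17 (2.23-fold, adjusted p = 0.0949). Th3/Th3 lay below Th3/+ by -0.56 with a standard error of 0.17, which did not pass (adjusted p = 0.0848). Of 17 interferon-stimulated genes tested of 29 listed, 0 were called. An unadjusted p under 0.05 was seen for 1 upward (Oasl2) and 1 downward (Irf1, at -0.21), against 2.26% and 1.21% of all genes. The SD of the Th3/Th3 arrays was 0 for Irf1, which lowers the shared estimate of the spread behind its p. Above 0 lay 8 (52.1% of all genes), with a median of -0.02 and Usp18 at -0.44.

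Of the remaining large positive differences, Eola1 lay 0.92 above wild type, Dapp1, an adaptor of phosphoinositide signalling, 0.86, and Nkiras1, a Ras-like protein that binds inhibitors of NF-kappa B, 0.84. Nkiras1 read 5.22, 4.52 and 4.41 in the wild type arrays, 5.29, 5.56 and 5.83 in the Th3/+ arrays and 7.37, 7.39 and 7.3 in those of Th3/Th3. Wild type replicate 1 almost met the lowest Th3/+ array, and Th3/Th3 stood well apart from both. None of the 3 passed, with adjusted p-values of 0.734, 0.819 and 0.76.

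No probe set fell by the test (0 called in limma on the lower side, beside the 217 at an unadjusted p under 0.05). The largest negative difference with non-overlapping arrays under the naming rule was that of Prr15l, 7.54, 7.37 and 8.41 in wild type against 6.81, 7.07 and 6.73 in Th3/+ (-0.91, standard error 0.27, adjusted p = 0.973). Aim2, a cytosolic DNA sensor, read 8.61, 8.92 and 8.8 against 8.14, 8.05 and 7.93 and lay at -0.73 (adjusted p = 1). Pepd, a dipeptidase that frees proline, read 8.03, 8.23 and 8.5 against 7.74, 7.56 and 7.56 and lay at -0.63 (adjusted p = 0.819), with -2.8 in Th3/Th3 over the same wild type arrays. Cln6 lay at -0.76, Emp3 at -0.7, Purb at -0.68 and Apol10a at -0.66, none with an adjusted p under 1. Apol10a passed the filter through its wild type arrays alone (4.61, 5.03 and 4.77). Its Th3/+ arrays, at 4.16, 4.11 and 4.16, lay under the 40th percentile, so the filter itself favoured its lack of overlap. For Cln6 the value rests mainly on Th3/+ replicate 1, at 6.8 against 8.01 and 7.79 in the other Th3/+ arrays. For Purb a second probe set stood at 0.0067, so its probe sets disagreed.

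The smallest p among negative differences was that of Ect2l, at a low level. One of its probe sets read 5.88, 5.7 and 5.75 in the wild type arrays and 5.23, 5.16 and 5.19 in the Th3/+ arrays, a difference of -0.58 with a standard error of 0.07 (adjusted p = 0.0505). It passed as a lower call under 5 alternatives: median centring (adjusted p = 0.0318), quantile normalization (0.04), adjustment over annotated probe sets alone (0.0499), the stricter filter (0.0377) and array weights (0.0114). Its other probe sets differed by -0.59 with widely scattered arrays (unadjusted p = 0.516) and by -0.0038, so the gene's probe sets disagreed.

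Txnip, which encodes an inhibitor of thioredoxin and of glucose uptake, read 8.72, 8.53 and 8.15 in the wild type arrays, 7.7, 8.03 and 7.24 in the Th3/+ arrays and 7.93, 7.52 and 7.21 in those of Th3/Th3. The Th3/+ arrays lay below all wild type arrays and among the Th3/Th3 arrays. Th3/+ differed from wild type by -0.82 with a standard error of 0.25 (adjusted p = 1), and Th3/Th3 by -0.92 (adjusted p = 0.0444). The predicted gene Gm15441, singled out after its values were seen, overlaps Txnip in the RefSeq table and had the most negative difference of all 12898 genes tested. It read 7.91, 7.47 and 7.3 in the wild type arrays, 6.65, 6.13 and 6.15 in the Th3/+ arrays and 6.58, 7.24 and 6.37 in those of Th3/Th3, a difference of -1.25 with a standard error of 0.25 (adjusted p = 0.501). Where genes overlap, signal from one and from the other is not certain to be separated by the probes.

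**Figure D4:**
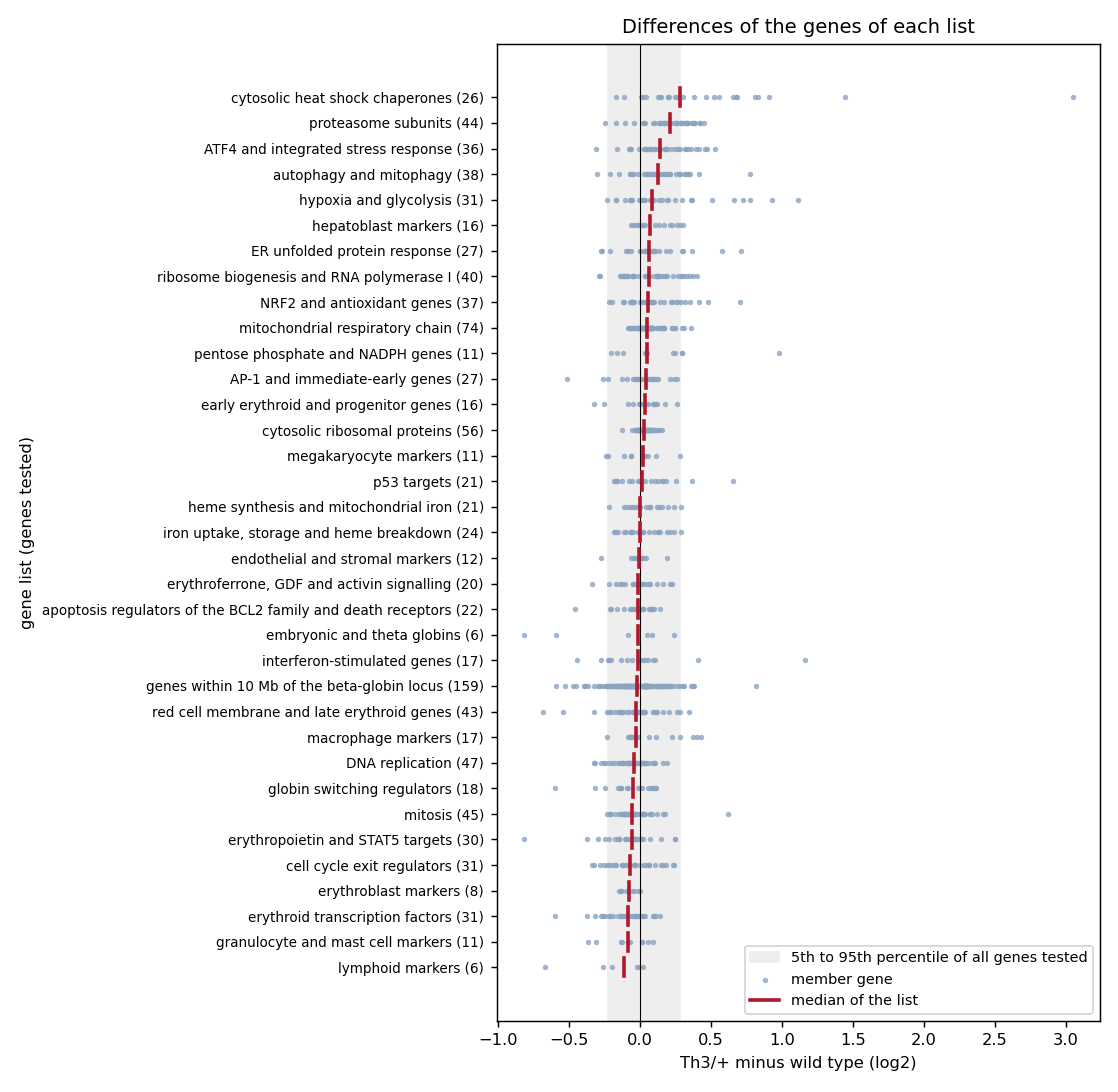
Difference between Th3/+ and wild type (log2, horizontal) for the tested members (points) and the median (red mark) of each gene list (vertical, with the number of genes tested), over a grey band from the 5th to the 95th percentile of all genes tested. The chaperone and proteasome lists stand at the top with medians of 0.28 and 0.21, and most lists have medians near 0.

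The sorted cells carried the erythroid profile their label names. The 8 erythroblast markers read on a probe set of their own were above the 40th percentile of the array on all 9 arrays. One of them, Tfrc, encodes CD71, on which the cells were sorted. For all 8 the 95% interval of the difference lay within 1.5-fold, and their median was -0.07, against -0.61 in Th3/Th3. In Th3/+ 1 of the 8 lay above 0, against 52.1% of all genes. The summed level of the markers (log2 of the summed antilogs) was 14.71 to 14.89 in wild type and 14.71 to 14.79 in Th3/+. In sorted bulk RNA, fewer cells of a type and less RNA per cell cannot be told apart.

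Markers of other fetal liver cells had low summed levels, and their ranges overlapped between the groups, those of lymphoid genes only at the edge. Each sum takes in markers under the 40th percentile of the array and grows with the number of markers. A sum alone therefore does not show that a cell type was present. Macrophage markers summed to 9.91 to 10.28 in wild type and 9.86 to 10.5 in Th3/+, with 4 of 23 (Cd14, Itgam, Mrc1 and Cd163) under the 40th percentile on all 9 arrays. Hepatoblast markers summed to 10.82 to 11.24 and 10.77 to 11.6, with Apob and Cps1 under that level throughout. Megakaryocyte markers summed to 10.06 to 10.44 and 10.15 to 10.39, granulocyte and mast cell markers to 9.25 to 10.15 and 9.28 to 9.84 (8 of 20 under that level), and endothelial and stromal markers to 9.21 to 9.29 and 9.2 to 9.31 (8 of 20). Lymphoid markers summed to 8.72 to 8.9 in wild type and 8.59 to 8.74 in Th3/+, with 12 of 19 under that level. Among tested members of these lists 0 were called, and the immature B cell gene Igll1 (-0.26) was the 1 member with an unadjusted p under 0.05. The part of these cells in the differences above was not tested.

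The labels trace the strain to 129SV, and the chromosome around the Th3 allele can keep that strain's sequence after crossing to C57BL/6. Of 159 tested genes within 10 Mb of the beta-globin cluster on chromosome 7, by the RefSeq table, 0 were called. An unadjusted p under 0.05 was seen for 4 upward (2.26% of all genes) and 4 downward (1.21%), and 70 lay above 0 (52.1%). The median was -0.02, and likewise -0.02 within 5 Mb (108 genes) and within 20 Mb (236 genes). Capn5, a calpain protease, read 8.16, 7.57 and 8.24 in wild type, 7.46 in each of the 3 Th3/+ arrays and 5.71, 5.59 and 5.8 in Th3/Th3. Its difference was -0.53 with a standard error of 0.17 (adjusted p = 1), and -2.29 in Th3/Th3 over the same wild type arrays. Relt lay at -0.37, the olfactory receptor genes Olfr632 and Olfr67 at -0.45 and 0.38. Olfr67, among the 4 counted upward, passed the filter without its wild type arrays (4.13, 4.32 and 4.5), which lay under the 40th percentile. The filter itself therefore favoured its positive difference. Whether a strain difference in the probed sequence has a part in these values was not tested.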

How the data were processed

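The study measured RNA of sorted fetal liver erythroblasts on 9 whole-transcript arrays, 3 per genotype. The deposited table gives log2 values, 1 per probe set and array; the submitters' processing notes name MAS5, and the summary method is not given in the sources used here, nor are background correction and build. The authors' log2 values were used as deposited, since array medians agreed (4.95 to 5.01). Of 35556 probe sets, 6617 with identifiers below the first annotated one were left out as controls. Of the other 28939, 21789 had 1 symbol, 1621 several and 5529 none. Probe sets above the 40th percentile of the array on at least 3 of 9 arrays were kept (17742; 14978 annotated), and each gene was read on its own probe set with the highest mean (12898 genes). No gene was named from a shared set unless all its symbols are given.

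With limma 3.58.1 (R 4.3.3), lmFit and eBayes with trend modelled the 9 arrays by genotype, tested two-sided, with Benjamini-Hochberg adjustment over the kept probe sets and 95% intervals from the moderated variance. An exact permutation of 3 against 3 arrays cannot give a p under 0.1. The procedure was run on simulated data with independent noise and no effects shared by the probe sets of an array. That run does not show how it performs where arrays carry such effects. The number of arrays limits the precision. The comparison, gene lists, alternatives and naming rule were chosen with earlier results of these data known. The rule names all globins, the 10 largest differences in each direction (by non-overlapping arrays where fewer than 10 passed), the 10 smallest p-values, 2 members of each list by p (all called, up to 4), and 5 genes near the locus, without predicted genes, small RNAs, Xist and Y-linked genes. Other list members are named by p or as known parts of a pathway, after their values were seen. Promoters came from RefSeq (GRCm38.p6).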

Additional observations from a re-analysis of the deposited data

Results flagged for a closer look

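The probe set with the smallest p of all has no gene symbol in the annotation used, so it lies outside the comparison of named genes. It read 6.54, 6.54 and 6.44 in the wild type arrays, 9.39, 9.93 and 9.13 in the Th3/+ arrays and 10.83, 10.2 and 10.25 in those of Th3/Th3. The difference between Th3/+ and wild type was 2.98 with a standard error of 0.23 (95% interval 2.47 to 3.49, 7.87-fold, adjusted p = 0.00438, limma). It was the 1 probe set called without each single array of wild type or Th3/+ in turn.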

How the results depend on the processing

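The fit was repeated with other arrays, filters, scalings, variance models and a block for the replicate number. Of the alternative values of counts and list medians, 649 stayed within the limits used and 37 did not. Of those of named genes, 1647 kept direction and side of the threshold, 19 newly passed, 8 no longer passed and 7 changed sign. The called count of 5 became 0 on the 6 arrays alone, 10 with the stricter filter (above the 60th percentile), 22 with array weights and 3 without Th3/+ replicate 1 and Th3/Th3 replicate 1, and ranged from 1 to 12 when single arrays were left out. The 645 probe sets with an unadjusted p under 0.05 became 1561 with array weights and 1228 without both of those arrays, and ranged from 531 to 928 without single ones. The 1353 without overlap became 2446 to 3734 when an array was left out, since fewer arrays overlap less often, and 3734 without both.

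The deviations of wild type and Th3/+ arrays of the same replicate number correlated at 0.13, -0.13 and 0.36. On the second principal component replicate 1 was highest and replicate 3 lowest in every genotype. Whether arrays of the same number shared a batch or litter is not in the labels and was not tested. With the replicate block 6 probe sets were called, the same 5 and Hsph1 (adjusted p = 0.0166), and 846 had an unadjusted p under 0.05, against 645 without it. On the 6 arrays alone the block gave 0 calls and 985 at an unadjusted p under 0.05, against 780 without it.

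With the stricter filter, list medians moved to 0.24 for the pentose phosphate genes, 0.12 for early erythroid genes, 0.11 for p53 targets, -0.063 for megakaryocyte markers and -0.67 for lymphoid markers, with fewer genes tested. Array weights gave 0.019 for red cell membrane genes. Without both arrays named above, the chaperone median was 0.42 and that of granulocyte and mast cell markers 0.01. When single arrays were left out, medians ranged from 0.23 to 0.42 for chaperones, -0.32 to 0.11 for embryonic and theta globins, -0.044 to 0.11 for heme synthesis, -0.059 to 0.041 for red cell membrane, -0.074 to 0.014 for cell cycle exit, -0.10 to 0.24 for macrophage, -0.054 to 0.029 for megakaryocyte and -0.095 to 0.019 for granulocyte and mast cell markers. The sign changed for Hbb-y with array weights (0.058) and without both arrays (0.15). Without single arrays Hbb-y ranged from -0.36 to 0.15, Hba-x from -0.29 to 0.27 and Hbb-bh2 from -0.035 to 0.64, with changes of sign. The cause was not tested for these values where none is given. With 3 arrays a group, the median 95% interval reached 0.29 to either side, so differences under about that size could not be resolved for most probe sets. Whether signal near the top of the scale limits the adult beta-globin and alpha-globin values was not tested.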
